A study of Mus musculus with 2 samples.

Results

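The clustered protocadherins were examined in CT26 cells, a mouse colorectal cancer line, with and without decitabine (DAC), a cytosine analog that inhibits DNA methyltransferases. Members were chosen by symbol alone: the 58 genes that GENCODE mouse release M21 places in the Pcdh alpha, beta and gamma clusters, of which 43 are among the 24223 genes with counts and 15 were not analysed here. The treated cells received 1 μM DAC in 3 doses at intervals of 24 h and then spent 24 h in drug-free medium, and the control cells were handled in the same way without DAC. Each condition is a single library of the same cell line, so differences carry no replicate check and no p-value. Fewer cells expressing a gene and less RNA per cell cannot be told apart in such bulk libraries.

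Clustered protocadherins are cell adhesion proteins of the cadherin superfamily, best known from neurons, where each cell expresses its own combination and recognizes cells that carry the same one. Each gene has its own promoter and a large first exon, the variable exon, which encodes the extracellular cadherin repeats and the membrane span. In the alpha and gamma clusters that exon is spliced to constant exons shared by the whole cluster, which encode the common end of the cytoplasmic tail, whereas beta genes have no constant part. Promoter choice depends on CTCF, cohesin and DNA methylation, and the C-type genes at the end of the alpha and gamma clusters are regulated apart from the others. Methylation of these clusters is a known feature of many tumors.

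Total counts were 35163420 for DAC and 34221886 for control. Values are given as CPM, counts per 1e6 counts of a library whose total was scaled by edgeR's TMM factor (1.07 for DAC and 0.936 for control), so that 1 CPM is 37.6 counts in DAC and 32.0 counts in control. The 2-fold rule used below asks for 1 CPM or more in either library, a CPM ratio of DAC over control of 2 or more (higher) or 0.5 or less (lower), and a 95% counting interval (Clopper-Pearson, exact) that does not include 1. The interval follows each ratio in parentheses and covers counting error only. Scaling by library totals alone raises the median log2 ratio of all genes from -0.018 to 0.18.

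All 3 clusters lie on the plus strand of chromosome 18 (GRCm38), the alpha genes from 36930184 to 37187661, the beta genes from 37264938 to 37524479 and the gamma genes from 37661793 to 37841873. The 3 constant exons of the gamma cluster cover 2116 bases and those of the alpha cluster 2860 bases. A median of 2587 exon bases per gamma gene lies outside every other annotated gene, which is mainly the variable exon. The sources used here do not say how reads of the constant exons were assigned. Pcdhga7 and Pcdhgb4 had 0 control counts although they carry the same constant exons as Pcdhgc3, which had 2725, so these reads were not counted for every gene that holds the exons. Summed counts of a cluster may still hold some of them more than once.

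**Figure D1:**
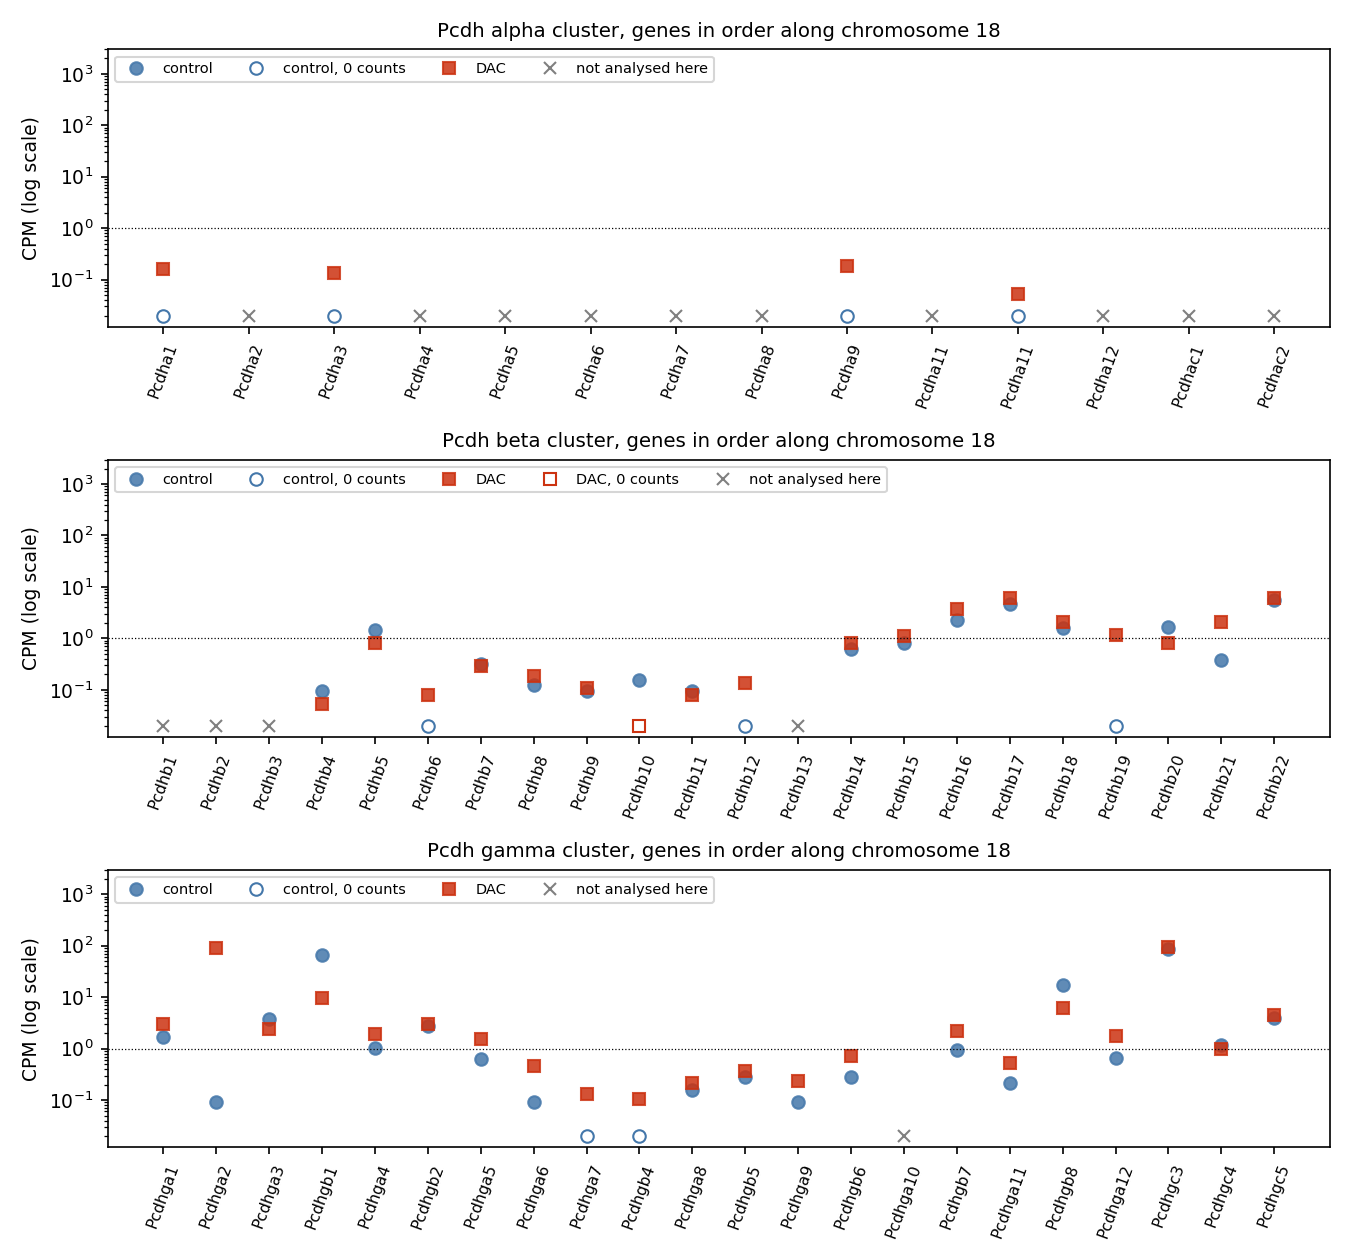
CPM of each member (y axis, log scale) in control (blue circles) and DAC (red squares), with genes in chromosomal order on the x axis in 3 panels, 1 per cluster. Open symbols are 0 counts and crosses are genes not analysed here, both drawn at the bottom, and the dotted line is 1 CPM. Pcdhga2 stands at 0.0937 CPM in control and 90.5 CPM in DAC, and Pcdhgb1 at 66.8 and 9.63 CPM.

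The gamma cluster held 5993 of the 6625 counts of all members in control and 8441 of 9429 in DAC, and the gene that dominated its A and B types differed between the libraries. Pcdhga2 (ENSMUSG00000103332), whose transcript starts at 37668953, had 3 counts in control and 3401 in DAC. This was 0.0937 and 90.5 CPM, a ratio of 966 (330 to 4687). Of the 50-base stretches of its variable exon, 0.317% occur in other annotated genes, against 44.8% of its whole transcript, which includes the constant exons.

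Pcdhgb1 (ENSMUSG00000103037), which starts 11.3 kb downstream of Pcdhga2, went the other way. It had 2139 counts in control and 362 in DAC, or 66.8 and 9.63 CPM, and was 6.93-fold lower (6.2 to 7.77). Pcdhgb8 (ENSMUSG00000103081), annotated as a polymorphic pseudogene, had 558 and 236 counts and was 2.77-fold lower (2.38 to 3.24). Pcdhga3, which lies between Pcdhga2 and Pcdhgb1, had 122 counts in control and 90 in DAC, and its ratio of 0.629 (0.473 to 0.832) did not reach 2-fold. The exons of Pcdhgb1 overlap the first exon of Pcdhga4, so some reads of these genes could belong to either.

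Read per kilobase of exon, Pcdhgb1 stood at 11.6 CPM per kb in control and Pcdhgb8 at 3.78, and every other gene of the A and B types was under 1. In DAC the order was Pcdhga2 with 19.3, Pcdhgb1 with 1.67 and Pcdhgb8 with 1.36 CPM per kb. Pcdhga2 thus stood in DAC where Pcdhgb1 stood in control, as the most abundant member of the A and B types.

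The total over the A and B types moved far less than these single genes. Summed over 18 genes with counts, it was 3104 in control and 4695 in DAC, a ratio of 1.29 (1.23 to 1.35). The A genes alone had 270 and 3858 counts (ratio 12.2, 10.8 to 13.8, and 1.46 without Pcdhga2). The B genes had 2834 and 837 counts (ratio 0.252, 0.233 to 0.272, and 0.582 without Pcdhgb1). In the control library Pcdhgb1 held 68.9% of the A and B counts (exact binomial 95% interval 67.2 to 70.5), and in the DAC library Pcdhga2 held 72.4% (71.1 to 73.7). The effective number of members, the inverse of the summed squared shares, was 1.96 in control and 1.87 in DAC, so a single gene held most of the A and B counts in both libraries.

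**Figure D2:**
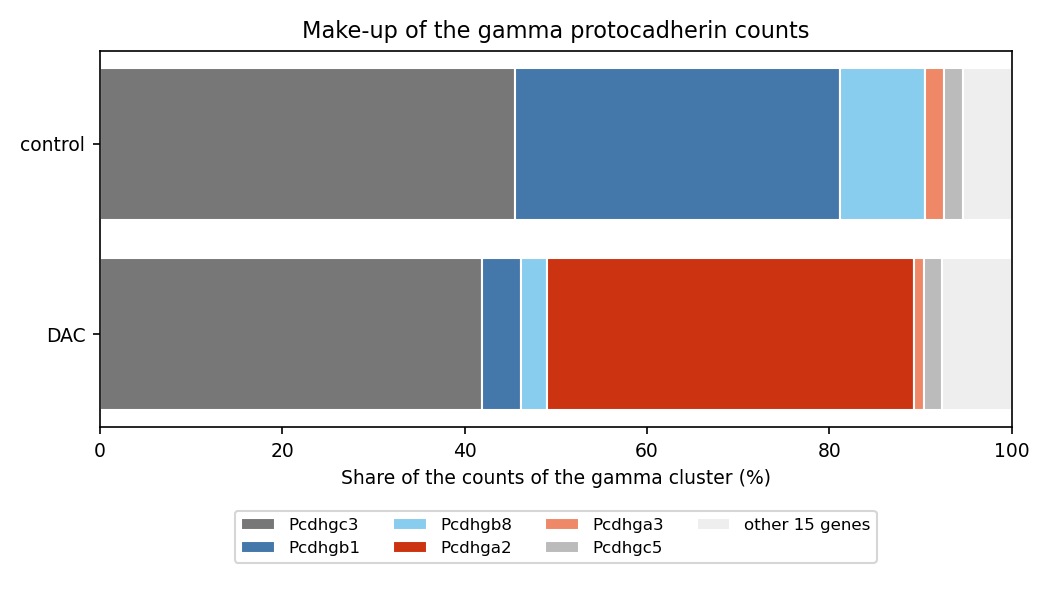
Share of the gamma cluster's counts held by each named gene (x axis, percent) in the control and DAC libraries (bars), with 15 further genes pooled. Pcdhgc3 holds 45.5% and 41.9%, Pcdhgb1 shrinks from 35.7% to 4.29%, and Pcdhga2 widens from 0.0501% to 40.3%.

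The C-type genes had ratios near 1. Pcdhgc3, a broadly expressed C-type member, stood at 2725 counts in control and 3540 in DAC, or 85.1 and 94.2 CPM, which gave a ratio of 1.11 (1.05 to 1.16). Pcdhgc5 had 127 and 169 counts (ratio 1.13, 0.896 to 1.44), and Pcdhgc4 had 37 counts in each library (ratio 0.852, 0.525 to 1.38). None of these genes was called.

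Pcdhgc3 was the largest gamma member by counts in both libraries, with 45.5% of the cluster in control (44.2 to 46.7) and 41.9% in DAC (40.9 to 43.0). In DAC its share and that of Pcdhga2, 40.3% (39.2 to 41.3), overlap in their counting intervals. Per kilobase of exon Pcdhga2 (19.3 CPM per kb) came before Pcdhgc3 (17.1). With the same counts divided only by exon bases outside other genes, the order was the opposite, 51.7 for Pcdhgc3 and 35.2 for Pcdhga2. Pcdhgc3 has 1821 such bases and Pcdhga2 2573, and the counts were not limited to them. The opposite order thus comes from the divisor and does not rank the reads of these bases. BC037039, with 94 control and 95 DAC counts, is antisense to the first exon of Pcdhgc3, and the sources used here do not state whether the counting used strand.

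Most of the remaining A and B genes had somewhat more counts in DAC. Apart from Pcdhga2, Pcdhgb1 and Pcdhgb8, 15 genes summed to 404 counts in control and 696 in DAC, a ratio of 1.47 (1.3 to 1.66), and 14 of the 15 had the higher CPM in DAC. Leaving out those 3 genes was decided after their values were seen. Pcdhga5 rose from 20 to 58 counts (ratio 2.47, 1.46 to 4.34). Pcdhgb7 went from 30 to 81 (ratio 2.3, 1.5 to 3.62) and Pcdhga12 from 21 to 66 (ratio 2.68, 1.62 to 4.61).

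These 3 genes were called higher, each at under 1 CPM in control. Pcdhgb7 and Pcdhga12 share bases with the antisense gene Gm26672, which had 3 control and 22 DAC counts, so without strand some of their reads cannot be told apart. Pcdhga1 (53 and 112 counts, ratio 1.8, 1.29 to 2.55) and Pcdhga4 (33 and 72, ratio 1.86, 1.22 to 2.9) stayed under 2-fold and pass it by library totals. Pcdhgb2 had 89 and 113 counts (ratio 1.08, 0.812 to 1.44). From Pcdhga6 to Pcdhgb6, the middle of the cluster, every gene with counts had at most 27 counts in either library.

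The beta genes were counted at low levels in both libraries, and those nearest the gamma cluster held most of the beta counts. The 9 genes from Pcdhb14 to Pcdhb22 had 557 control and 902 DAC counts in sum, at 1.38-fold (1.24 to 1.54), while the 9 genes with counts from Pcdhb1 to Pcdhb13 had 75 and 66 (ratio 0.75, 0.53 to 1.06). This split of the beta genes was not planned. Pcdhb17 and Pcdhb22 were the largest members. Pcdhb17 had 147 and 230 counts (ratio 1.33, 1.08 to 1.65), and Pcdhb22 had 175 and 232 (ratio 1.13, 0.924 to 1.38). Per kilobase of exon Pcdhb17 led the beta genes in both libraries, with 0.985 CPM per kb in control and 1.31 in DAC.

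2 beta genes were called higher. Pcdhb19 had 0 control and 44 DAC counts, 12.5-fold higher with control set to a floor of 3 counts, with a counting interval from 9.74. Pcdhb21 had 12 and 79 counts (ratio 5.61, 3.04 to 11.3) and shares 455 exon bases with Pcdhb22. Pcdhb20, which lies between Pcdhb19 and Pcdhb21, had 53 and 31 counts and was 2.01-fold lower (1.26 to 3.23), a call that ends with every other scaling tried. The beta genes as a whole had 632 and 968 counts (ratio 1.31, 1.18 to 1.45).

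The alpha genes with counts were near 0 in both libraries. Of the 14 genes of the cluster, 4 had counts, all 0 in control and between 2 and 7 in DAC: Pcdha1 had 6, Pcdha3 had 5, Pcdha9 had 7 and Pcdha11 had 2. The sum of 20 DAC counts, 0.532 CPM, stood against 0 in control, 5.68-fold higher with control set to 3 counts over the group (interval from 4.21). No alpha gene reached the CPM minimum, and differences between single alpha genes were not detectable at this depth. The C-type alpha genes Pcdhac1 and Pcdhac2 were not analysed here.

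**Figure D3:**
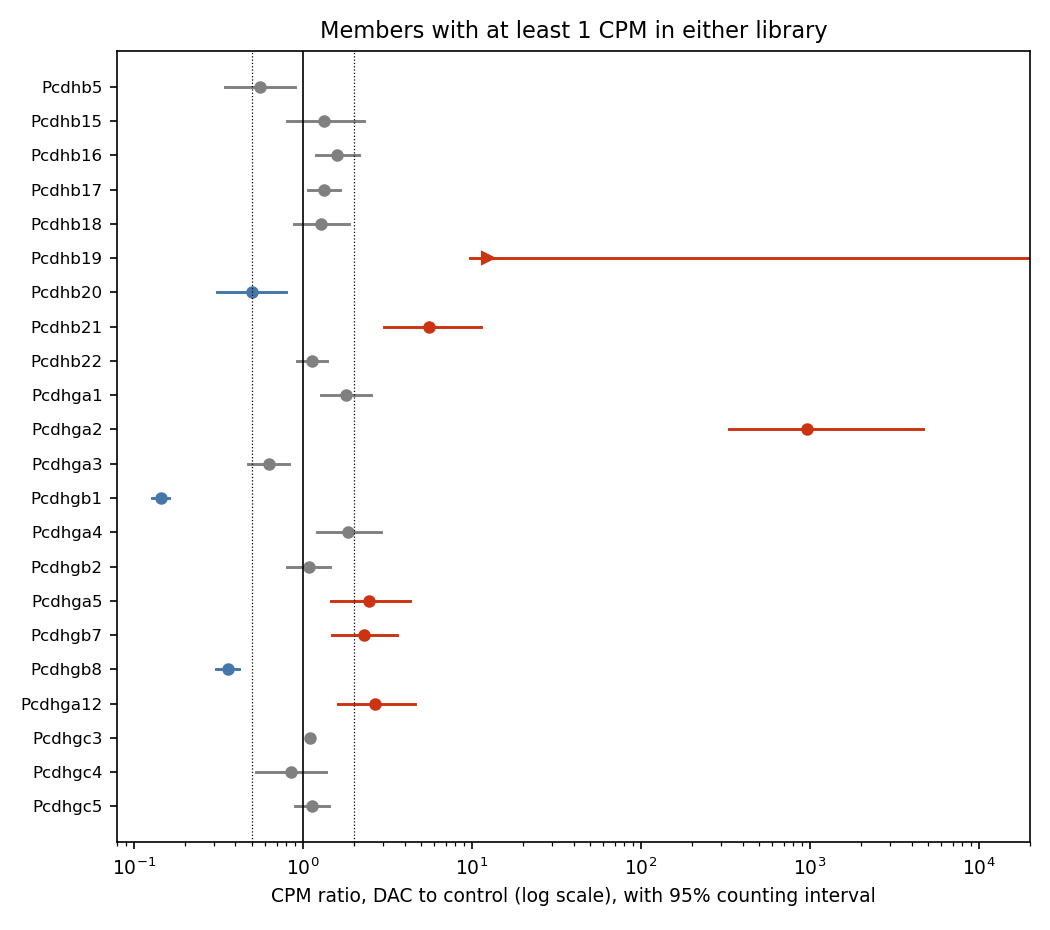
Ratios of CPM, DAC over control, on a log x axis for the 22 members with at least 1 CPM in either library, in chromosomal order, as points with 95% counting intervals. Red genes were called higher and blue genes lower, the solid line is a ratio of 1 and dotted lines are ratios of 0.5 and 2. The triangle is the ratio of Pcdhb19, which had 0 control counts, with control set to 3 counts (12.5). Its line starts at the lower end of the interval, 9.74, and has no upper end. Among the points Pcdhga2 lies farthest right at 966.

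Across the family, 22 members passed the CPM minimum, of which 6 were called higher and 3 lower. Over all 13545 genes past it, 10.8% were called higher and 5.29% lower, against 27.3% and 13.6% of the members. By library totals 8 members were higher and 2 lower, against 13.9% and 3.37% of all genes. Without the CPM minimum, 8 of the 43 members with counts were higher and 3 lower, against 11% and 5.11% of all genes. Pcdhga2 and Pcdhb19 went from under 0.1 CPM in control to at least 1 CPM in DAC, as did 1.4% of all genes past the minimum. The median log2 ratio was 0.39 over the 22 members and -0.018 over all genes. The filter bears on these counts: the 6 higher members passed it in the DAC library alone, where 78.9% of all genes that passed in that way were called higher. Of the 12 members with at least 1 CPM in both libraries, 0 were higher and 2, Pcdhgb1 and Pcdhgb8, were lower, against 5.87% and 4.06% of all such genes. Among the 21 members with counts under the minimum, at most 31 in either library, 18 had more raw counts in DAC, 2 had more in control and 1 was equal. Raw counts are not scaled and favour DAC, where 1 CPM is more counts than in control. Pcdhb7, with 11 DAC and 10 control counts, stood lower in DAC by CPM (0.293 against 0.312). By CPM, 33 of all 43 members with counts were above control and 10 below. The same comparison over all genes under the minimum is not given here.

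Along the locus, the members with the highest CPM in either library lay at the start of the gamma cluster (Pcdhga2 and Pcdhgb1) and toward its end (Pcdhgb8 and Pcdhgc3). Genes close together could differ in direction, as Pcdhga2 did from Pcdhgb1 and from Pcdhga3 between them (ratio 0.629, not called). Pcdhb20 likewise differed from its neighbours Pcdhb19 and Pcdhb21. Taf7, a subunit of the general transcription factor TFIID that lies between the beta and gamma clusters, 21.3 kb before Pcdhga1, had 468 and 544 counts (ratio 0.991, 0.874 to 1.12).

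The members also differed in the CpG content of their first 300 transcribed bases, a stretch inside the variable exon. The ratio of observed to expected CpG there was at least 0.6 in 11 of 14 alpha genes, 2 of 22 beta genes, 4 of 12 gamma A genes, 6 of 7 gamma B genes and 2 of 3 gamma C genes. This was 43.1% of all members, against 45.7% of the genes in the count tables and 57.5% of the protein-coding genes there. Pcdhgb1, at 0.597, was the gamma B gene under that value, and Pcdhga2 stood at 0.549. It was 0.24 for Pcdhb19 and 0.29 for Pcdhb21. Methylation of these sequences was not analysed here.

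The factors known to organize or silence the clusters showed no 2-fold difference in RNA. Their protein was not measured here, and the paper describes loss of the methyltransferase enzyme after DAC binds it. Of 16 such genes, all past the CPM minimum, 0 were called in either direction, while of all genes 10.8% were higher and 5.29% lower. Their median log2 ratio was -0.24, and by library totals 1 was higher. Rad21, a cohesin subunit and the most abundant of them per kilobase, had a ratio of 0.665 (0.651 to 0.679). Smchd1, a silencer of the clusters, had 0.58 (0.557 to 0.604), and the cohesin loader Nipbl 0.595 (0.575 to 0.615). Ctcf, which binds at the promoters and variable exons, had 0.976 (0.93 to 1.02), and the maintenance methyltransferase Dnmt1 0.994 (0.964 to 1.03). Dnmt3b, a methyltransferase that sets new methylation and is known to act on these promoters, had 47 counts in control and 107 in DAC (ratio 1.94, 1.36 to 2.8).

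Of 18 genes for partners inside the cell, which include focal adhesion kinases and the WAVE complex that links protocadherin tails to actin, 17 passed the minimum, 2 were higher and 0 lower. Over all genes past the minimum, 10.8% were higher and 5.29% lower. Ptk2b, a kinase bound by alpha and gamma protocadherins, had 16 and 105 counts (ratio 5.59, 3.29 to 10.1), and the small GTPase gene Rac1 4975 and 13467 (ratio 2.31, 2.23 to 2.38). Brk1, a WAVE complex subunit and the most abundant of this list per kilobase, had a ratio of 0.62 (0.596 to 0.644).

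Protocadherins outside the clusters were not called by the 2-fold rule. Of 12 such genes, 5 passed the minimum and 0 were higher or lower, against 10.8% and 5.29% of all genes. Pcdh19 had 2742 counts in control and 3312 in DAC (ratio 1.03, 0.978 to 1.08), and Pcdh1, which lies beyond the gamma cluster, 2374 and 2752 (ratio 0.988, 0.935 to 1.04). Pcdh7 had a ratio of 1.69 (1.4 to 2.06) and Pcdh18 1.56 (1.42 to 1.72), both under 2-fold with intervals above 1. Pcdh10 had 0.885 (0.76 to 1.03). Without the CPM minimum 1 of these genes, Pcdh12, was higher, against 11% of all genes. Of 14 cadherin genes 3 passed and 1, Cdh17, an intestinal cadherin, was higher (55 and 183 counts, ratio 2.84, 2.09 to 3.91), while Cdh2, the most abundant, had 1.04 (0.975 to 1.1).

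Of 16 genes around or within the locus, 15 passed, 0 were lower and 2 were higher, against 5.29% and 10.8% of all genes. Cd14, the lipopolysaccharide co-receptor, had a ratio of 4.39 (3.93 to 4.92) and Arap3, a GTPase-activating protein, 7.06 (6.26 to 7.99). Ndufa2, a complex I subunit gene and the most abundant of this list per kilobase, had a ratio of 1.01 (0.949 to 1.08).

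Marker genes of several cell types moved as well. For comparison, 10.8% of all genes past the minimum were higher and 5.29% lower. Of 12 neuronal markers, 7 passed, 4 were higher and 1 was lower: Stmn2 had 0 control and 86 DAC counts, Elavl3 0 and 41, and Tubb3 115 and 311, while Nefl was 2.13-fold higher (2 to 2.26) and Nefm, the most abundant, had a ratio of 0.45 (0.438 to 0.462), a call that ends by library totals. Their summed level was 568 CPM in control and 348 CPM in DAC, but 60.4 and 120 CPM without Nefm, and their median log2 ratio was 1.09. The other markers past the minimum were not called: Syt1 had 236 control and 148 DAC counts (ratio 0.534, 0.432 to 0.659) and Syn1 25 and 42 (ratio 1.43, 0.853 to 2.45). Map2 had 3 and 0 counts. Of 12 colon epithelial markers, 5 passed, 0 were lower and 4 were higher, among them Krt8 (5 and 4445 counts), Krt19 (12 and 58) and Krt20 (593 and 1548). Krt18, the most abundant per kilobase, had a ratio of 1.7 (1.6 to 1.8) and was not called. The summed levels were 78.3 and 262 CPM, and 22.2 and 167 CPM without Krt18. Krt8 alone stood at 0.156 and 118 CPM. The junction gene Cdh1 and the brush border gene Vil1 had 0 counts in control and 9 and 12 in DAC, the intestinal transcription factor gene Cdx2 had 4 and 22, and the mucin gene Muc2 had 21 and 6, so these defining markers of colon epithelium were all under the CPM minimum. Of 10 fibroblast and mesenchymal markers, 8 passed and 1, Fn1, was lower (ratio 0.265, 0.263 to 0.267), with summed levels of 9524 and 4198 CPM. Without Fn1 the sums were 2947 and 2456 CPM, the list's median log2 ratio was 0.23, and Vim, the most abundant in DAC per kilobase, had 1.15 (1.13 to 1.17). Of 6 leukocyte markers 1, Ptprc, had counts (3 in control and 0 in DAC). The part of these shifts in the protocadherin values was not tested.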

How the data were processed

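RNA from 1 DAC-treated and 1 control CT26 culture was sequenced after poly-T selection with a TruSeq kit. The authors deposited whole-number counts per Ensembl gene without normalization. Tools listed in the submitters' processing notes are STAR 2.5.3a, StringTie 1.3.1c, Trim Galore, FastQC, DESeq and Cufflinks, with mm10, whereas the paper describes CASAVA, TopHat, Bowtie and FPKM values. The sources used here do not say which of these routes gave the counts, and the reference is C57BL/6J while CT26 is of BALB/c origin. Symbols, exons and transcripts came from GENCODE M21 on GRCm38, the assembly of mm10, and 24122 of 24223 identifiers matched. 2 genes carry the symbol Pcdha11, so the 58 genes have 57 symbols. The tables hold no gene at 0 counts in both libraries.

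TMM factors came from edgeR 4.0.16 and alternative factors from DESeq2 1.42.0, and ratios and intervals from scipy 1.17.1, numpy 2.4.6 and pandas 2.3.3 under Python 3.11.15. A count of 0 was set to 3 counts for ratios. Depth set the precision, since 3 counts equal 0.0937 CPM in control and 0.0798 CPM in DAC, and reads without molecular identifiers are not independent molecules. Exon overlap was counted against all annotated genes on both strands, and 50-base stretches against all GENCODE transcripts on both strands. The pipeline was tested on simulated libraries.

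The members, the gene lists and the rules were chosen with earlier results of these data known. Named genes were all members, and for each other list its most abundant gene per kilobase and up to 3 called genes in each direction, by how far the interval lay from 1. Ctcf, Smchd1, Nipbl, Dnmt1, Dnmt3b, Pcdh1, Tubb3, Ptprc, Map2, Cdh1, Vil1, Cdx2 and Muc2 and the genes of the closing section were named after their values were seen. So were Pcdh7, Pcdh10, Pcdh18, Syt1 and Syn1. Alternatives were other scalings, filters, folds and intervals, and thinning of the DAC library. Centring by GC content in 20 bins, and marker sums without the most abundant gene, were added after the data had been seen. Sums over the gamma A and B genes together and over parts of the beta cluster were not among the planned sums. Bisulfite data, xenografts and mouse experiments were not analysed here.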

Additional observations from a re-analysis of the deposited data

How the results depend on the processing

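No paired analysis was possible because each condition has 1 library. Pcdhga2, Pcdhgb1, Pcdhgb8, Pcdhb19, Pcdhb21, Pcdhgb7 and Pcdhga12 kept their direction and their call under every scaling and without the filter. They also kept both after thinning, after GC centring and with intervals from counts divided by 3. Of these, Pcdhb19, Pcdhb21, Pcdhgb7 and Pcdhga12 lost their call at a CPM of at least 5. Pcdhgb8, Pcdhgb7 and Pcdhga12 lost it at 4-fold, and Pcdhgb7 and Pcdhga12 with the interval beyond 2-fold. The median log2 ratio of the members lay between 0.16 (CPM of at least 5, 6 members) and 0.58 (library totals). The 6 higher members became 1 at a CPM of at least 5 (6.34% of all genes), 3 at 4-fold (4.27%) and 3 with the interval beyond 2-fold (7.21%), and the 3 lower members became 1 at 4-fold (0.827%), since fewer genes pass these stricter rules. By library totals the ratios of the sums were 1.49 for beta, 13.9 for gamma A, 0.287 for gamma B and 1.26 for gamma C, through the scaling alone. Without the member with most counts the sums were 3.69 for alpha, 1.46 for gamma A and 0.582 for gamma B. All counts of each gene were also divided by its exon bases outside other genes. By this measure the largest member held 23.4% of beta in control (Pcdhb17 in place of Pcdhb22). It held 50.7% of gamma in DAC and 54.6% in control, where the divisor of Pcdhgc3 is 1821 bases. Over all fixed lists of other genes, 13 genes were higher and 2 lower, where 10.8% and 5.29% of all genes past the minimum were. The genes past the minimum are counted list by list above. Without the filter, which lets more genes be called, 20 were higher (11% of all genes). By library totals 1 was lower (3.37% of all genes). Depth limits the alpha genes and the middle of the gamma cluster, where most control counts are at or near the floor.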

Other observations

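Other transcripts annotated within the protocadherin locus were counted at low levels. Among 11 such genes in the tables, 3 reached the CPM minimum and 0 were called, where 10.8% of all genes past it were higher and 5.29% lower. These 3 genes are too few to set against those shares. The lincRNA gene 3222401L13Rik, which ends just before Pcdhga1 on the same strand, had 30 counts in control and 63 in DAC (ratio 1.79, 1.14 to 2.86), beside 1.8 for Pcdhga1. The antisense gene Gm26672, under the minimum, had a ratio of 6.25 (1.88 to 32.6), and BC037039, antisense at Pcdhgc3, had 0.861 (0.641 to 1.16). Slc25a2, a mitochondrial carrier gene before Taf7, had 8 control and 2 DAC counts.

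Within 500 kb on either side of the clusters, 36 genes had counts and 27 passed the minimum. Of these 2 were higher and 0 lower, against 10.8% and 5.29% of all genes. The 2 are Cd14 and Arap3, already given above. Rell2, beyond the end of the gamma cluster, had 1 and 36 counts (ratio 30.7, 5.17 to 1245), and Pcdh12, farther along, 2 and 25 (ratio 10.7, 2.66 to 92.8), both under 1 CPM in each library. Ik, a splicing factor gene before the alpha cluster, had 10391 and 6233 counts (ratio 0.511, 0.495 to 0.528), just short of the 2-fold rule.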
